A study of Danio rerio with 6 samples.

Results

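The globin genes of zebrafish encode the protein chains of hemoglobin, the oxygen carrier of red blood cells. The genes examined were 4 adult copies (hbaa1, hbaa2, hbba1, hbba2) and 5 embryonic copies (hbae1.1, hbae3, hbbe1.1, hbbe2, hbbe3), matched by symbol to the Ensembl identifiers of the normalized count table. Of these 9 genes, 5 were found among 32267 features: the adult alpha genes hbaa1 and hbaa2, the embryonic alpha genes hbae1.1 and hbae3, and the embryonic beta gene hbbe3. The other 4, all of them beta genes, had no feature under their own symbol. The table of gene names instead gives 5 features the symbol HBE1, a name from the human beta globin family. Which fish beta gene each of these is was not assigned here, so they are described by identifier, apart from the members, and as neither adult nor embryonic.

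RNA was sequenced from unsorted cells of whole kidney marrow, the blood-forming tissue of adult teleost fish, which lies among the kidney tubules. There were 3 libraries from wild-type control fish and 3 from il7 mutants, all of strain TLEK. The mutants lack exons 2 to 4 of il7, the gene of the cytokine interleukin 7. The study asked what il7 does in lymphocyte development. The labels used here do not give the age or sex of the fish, or the number of fish per library. The p-values therefore measure only how far these samples spread, and that spread may be technical. Values are the authors' normalized counts, which are reads per gene divided by a size factor of each library.

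Hemoglobin is a tetramer of alpha and beta chains, each holding a heme group with an iron atom. Red cells of fish keep their nucleus and make globin RNA in large amounts. Zebrafish switch from embryonic to adult globin genes during larval life. In the gene order of RefSeq's GRCz12tu table, used here for neighbours only, alpha and beta genes are interspersed along a major cluster. There, among globin genes, hbaa2 lies next to hbba2 at the end beside nprl3, hbaa1 lies between ba1l and hbba1, and the embryonic genes from hbbe1.1 to hbae3 follow. The remaining embryonic genes hbae4, hbbe3, hbbe2 and hbae5 form a separate minor cluster. Adult copies within the major cluster are close in sequence, as are the embryonic copies hbae1.1, hbae1.2 and hbae1.3. The counting of reads that match several copies is not given in the sources used here. The division of reads between such copies is therefore uncertain.

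The libraries held between 34496353 and 46120889 reads counted for genes. The targeted gene il7 had between 57.7 and 89.8 normalized counts in control libraries and between 4.00 and 17.8 in mutants, so the libraries go with their labels. The oocyte markers stood apart in control 1 and il7 mutant 2, where the 9 markers found of 10 summed to 167964 and 85764 normalized counts, against 202 to 430 in the other 4 libraries. All 9 had their highest values in this pair, as had 23.9% of all fitted genes. In the other libraries GDF9 was at 0 in control 3 and zp2.1 at 0 in il7 mutants 1 and 3. The 7 muscle markers found summed to 162522 in il7 mutant 1 and 83909 in control 3, and to between 4815 and 19389 in the others, with none at 0.

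The adult gene hbaa1 (ENSDARG00000097011), which encodes an adult alpha chain, was measured at 43576, 176307 and 187569 normalized counts for controls 1, 2 and 3 and 265616, 103393 and 244965 for il7 mutants 1, 2 and 3. Control 1 was the lowest library and il7 mutant 1 the highest, 6.10-fold apart, and the groups overlapped. The other adult alpha gene, hbaa2 (ENSDARG00000069735), had 3274, 20203 and 101847 normalized counts in control libraries and 101311, 37263 and 54328 in mutants. It was low in controls 1 and 2, while control 3 and il7 mutant 1 were highest and nearly equal. Its lowest and highest libraries differed 31.1-fold. In a bulk sample, a gene's level alone cannot separate fewer red cells, less globin RNA per cell and more RNA from other cells.

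Of the 5 HBE1 features, ENSDARG00000089087 had the most reads. It had 102660, 428694 and 509077 normalized counts in control libraries and 535199.8, 269252 and 545538 in mutants. ENSDARG00000069734 had 3532, 20055 and 136503 normalized counts in control libraries and 193304, 46591 and 152730.0 in mutants. Like hbaa2, ENSDARG00000069734 was low in controls 1 and 2, with 54.7-fold between its extremes, against 5.31-fold for ENSDARG00000089087. ENSDARG00000097238 ranged from 1778 to 11447 normalized counts, lowest in control 1, and ENSDARG00000045143 from 2.36 to 26.0, also lowest in control 1. ENSDARG00000087390 was listed at 0 in all 6 libraries.

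**Figure D1:**
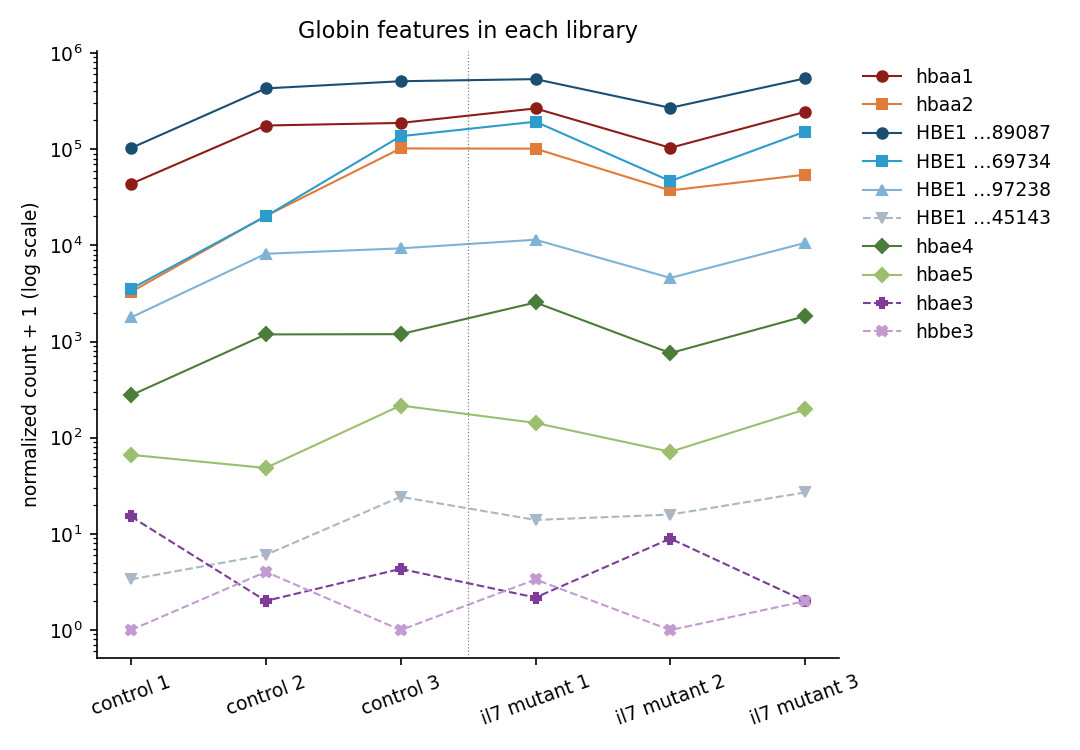
Normalized count plus 1 (log scale) of each globin feature above 0 in the 6 libraries, with lines joining the points of a feature to guide the eye. The features hbaa2 and HBE1 ENSDARG00000069734 span 31.1-fold and 54.7-fold, while hbaa1 spans 6.10-fold. The gene hbae3 is highest in control 1 and il7 mutant 2, the libraries where hbaa1 is lowest. This pair is the highest for 23.9% and the lowest for 19.4% of all fitted genes.

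The 3 embryonic members found had few or no reads, whereas hbae4 and hbae5, embryonic genes outside the list of members, were read in every library and are described after them. For hbae3 (ENSDARG00000079305), an embryonic alpha gene of the major cluster, there were 18, 1 and 3 reads in controls 1, 2 and 3 and 1, 8 and 1 reads in il7 mutants 1, 2 and 3. For hbbe3 (ENSDARG00000038147), an embryonic beta gene of the minor cluster, the reads were 0, 3 and 0 in controls and 2, 0 and 1 in mutants. For hbae1.1 (ENSDARG00000089475), an embryonic alpha gene, no read was counted in any library, which allows a level of up to 0.0650 to 0.0870 RPM (reads scaled to the library total) in a single library and 0.0128 on the same scale over all 234116219 reads. These limits cover counting error only, and they apply to reads assigned to this copy. The near copies hbae1.2 and hbae1.3 and the feature si:ch211-5k11.8, which RefSeq lists under the synonym hbaa1.2, were also at 0 throughout.

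The 2 libraries with most hbae3 reads, control 1 and il7 mutant 2, were those rich in oocyte transcripts. The same pair was the highest for 23.9% of all fitted genes. The 95% Poisson interval of the hbae3 reads was 10.7 to 28.4 in control 1 and 3.45 to 15.8 in il7 mutant 2. Its upper end was at most 8.77 in the other 4 libraries. The interval of il7 mutant 2 overlapped those of the other 4 libraries, while in reads that of control 1 did not. These intervals were not scaled to library depth. Control 1 held the most reads (46120889, against 38901066 in control 3), so this gap in reads does not show a gap in level. The egg coat gene zp3b had 55927 and 31205 normalized counts in control 1 and il7 mutant 2, against 52.1 to 68.7 elsewhere. The part of oocyte RNA in the hbae3 reads was not tested.

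**Figure D2:**
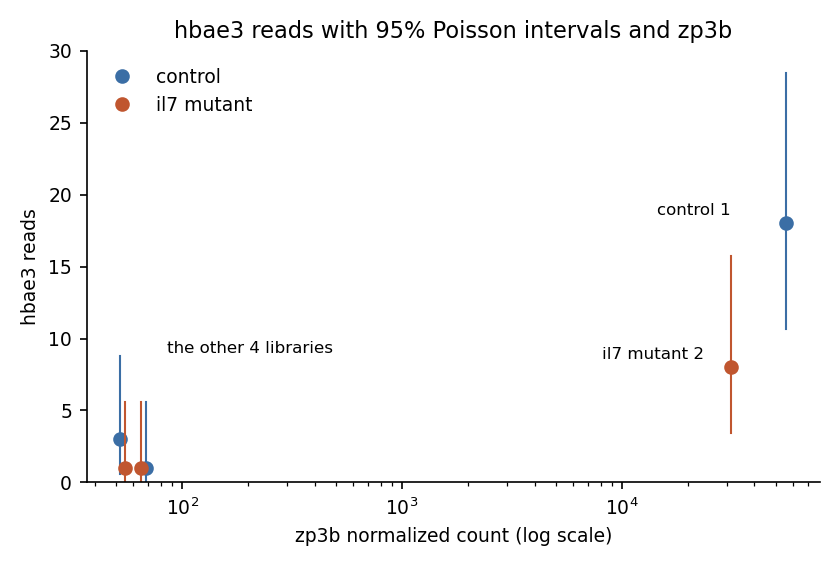
Reads of hbae3, not scaled to library depth, with 95% Poisson intervals (counting error only) against the normalized count of zp3b (log scale), 1 point per library. Control 1 and il7 mutant 2, with 18 and 8 reads, lie apart in zp3b from the other 4 libraries, with 1 to 3 reads. The hbae3 interval of il7 mutant 2 overlaps those of the other 4 libraries. This pair is the highest for 23.9% of all fitted genes.

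Set side by side, hbaa1 and hbaa2 together held 59475, 194476 and 260874 reads in controls 1, 2 and 3 and 311260, 141856 and 299568 in il7 mutants 1, 2 and 3. The 3 embryonic members together held 18, 4 and 3 reads in controls and 3, 8 and 2 in mutants. No length was used, so these are numbers of reads and not of molecules. In il7 mutant 3 the ratio of adult to embryonic reads was 149784, with a counting interval of 41464 to 1236815, and in control 1 it was 3304 (2091 to 5575). The log2 ratio of adult to embryonic normalized counts, each sum plus 1, was 14.29 ± 2.37 in controls and 15.62 ± 1.46 in mutants (n = 3, SD). The difference of 1.33 did not pass a two-sided exact permutation test (p = 0.5, where 0.1 is the smallest that 3 against 3 libraries can give). Without control 1 the difference was −0.02, and without both oocyte-rich libraries it was 0.82. This ratio rests on the 2 to 18 reads of hbae3 and hbbe3 and leaves out hbae4 and hbae5. It also lacks the beta genes hbba1, hbba2, hbbe1.1 and hbbe2, which had no feature under their own symbol. With hbae4 and hbae5 in the embryonic sum, a choice made after seeing the data, the ratio of adult to embryonic normalized counts was 132, 159 and 205 in controls 1, 2 and 3 and 136, 168 and 147 in il7 mutants 1, 2 and 3. The groups overlapped, and the log2 ratio was 7.34 ± 0.32 in controls and 7.23 ± 0.15 in mutants (n = 3, SD). Its difference of −0.12 had the opposite sign and did not pass the two-sided exact permutation test either (p = 0.7).

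Other genes of the minor cluster, hbae4 and hbae5, passed the filter on low values, unlike the embryonic members. The alpha-type gene hbae4 (ENSDARG00000045144) had 275, 1185 and 1193 normalized counts in control libraries and 2546, 758 and 1837 in mutants. The other alpha-type gene, hbae5 (ENSDARG00000045142) had 65.4, 47.5 and 215 in controls and 141, 70.4 and 196 in mutants. In both the groups overlapped. Whereas hbae3 was highest in control 1, hbae4 was lowest there. Relative to hbaa1, hbae4 normalized counts were 0.631%, 0.672% and 0.636% of those of hbaa1 in controls 1, 2 and 3 and 0.959%, 0.733% and 0.750% in il7 mutants 1, 2 and 3, so that this ratio did not overlap between the groups. This ratio was singled out after its values were seen and was not tested. A higher, non-overlapping ratio to hbaa1 in the mutants was found for 0.308% of the other fitted genes, and a ratio that did not overlap in either direction for 5.98%. As hbaa1 itself had a positive log2 change (0.74), ratios to it tend to be lower in the mutants. The 0.308% therefore does not measure how unusual hbae4 is, and genes that vary with hbaa1 were not compared. For hbae5 the ratio to hbaa1 ran from 0.0269% to 0.150% and overlapped.

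Within a library, a ratio of normalized counts does not depend on the size factor. The ratio of hbaa2 to hbaa1 was 0.0751, 0.115 and 0.543 in controls 1, 2 and 3 and 0.381, 0.360 and 0.222 in il7 mutants 1, 2 and 3. It varied 7.23-fold, was lowest in controls 1 and 2, and overlapped between the groups through control 3. The ratio of HBE1 ENSDARG00000069734 to ENSDARG00000089087 was 0.0344, 0.0468 and 0.268 in controls and 0.361, 0.173 and 0.280 in mutants. It too was lowest in controls 1 and 2, and it varied 10.5-fold. By contrast, ENSDARG00000097238 per ENSDARG00000089087 stayed between 0.0170 and 0.0214, and ENSDARG00000089087 per hbaa1 between 2.01 and 2.71.

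Alpha and HBE1 counts kept a nearly constant ratio as sums. The sum of hbaa1 and hbaa2 over the sum of the HBE1 features was 0.434, 0.430 and 0.442 in controls and 0.496, 0.439 and 0.422 in mutants, a 1.17-fold range. On the log2 scale it was −1.200 ± 0.02 in controls and −1.15 ± 0.12 in mutants (n = 3, SD). The difference of 0.05 gave p = 0.8 in a two-sided exact permutation test, and it turned to −0.02 without il7 mutant 1. Relative to alas2, the red cell enzyme that starts heme synthesis, hbaa1 counts were 3.62, 3.74 and 4.49 in controls and 3.26, 4.22 and 4.31 in mutants. This ratio covered a 1.38-fold range, whereas hbaa2 per alas2 ran from 0.272 to 2.44, an 8.96-fold range. A ratio of adult alpha to adult beta globin was planned. Its HBE1 denominator and the other ratios of abundant features were chosen after their values were seen.

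**Figure D3:**
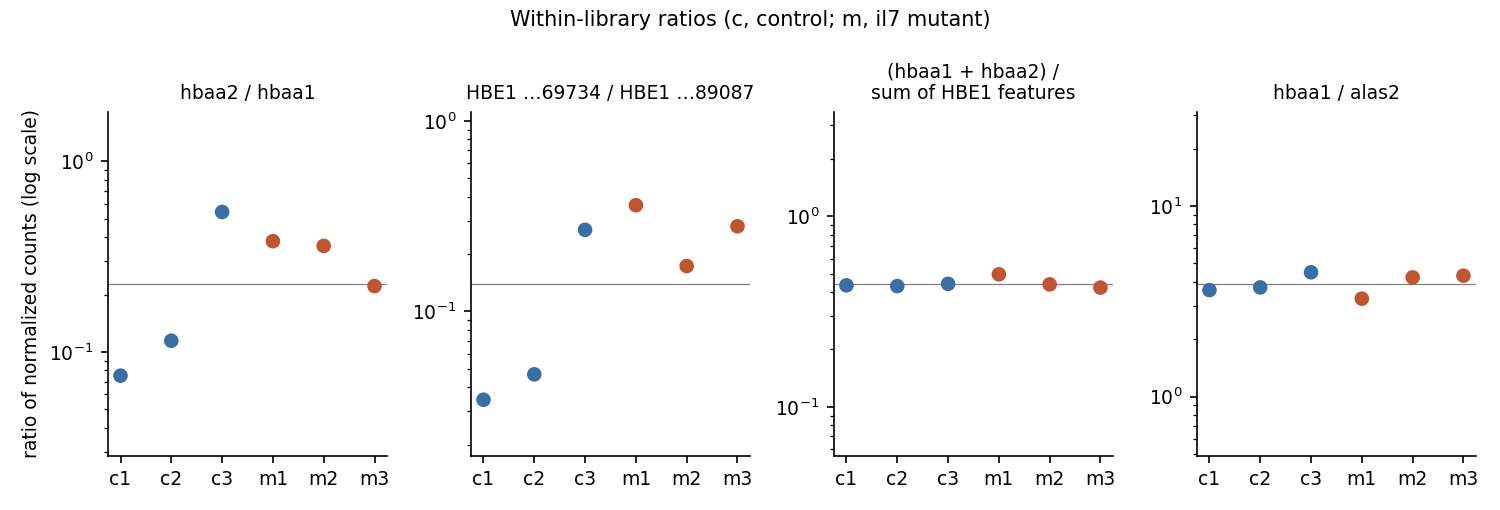
Ratios of normalized counts within each library, on log axes that all span the same fold around the geometric mean (grey line), for controls 1 to 3 (c, blue) and il7 mutants 1 to 3 (m, orange). The ratio of summed alpha to summed HBE1 counts stays between 0.422 and 0.496, while hbaa2 per hbaa1 runs from 0.0751 to 0.543.

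Reads counted for globin features were a small part of all reads counted for genes in these ribosome-depleted libraries. How reads matching several copies were counted is not given, so these shares may understate globin RNA. All 15 globin features considered here, members and others, took 0.427%, 1.64% and 2.19% of the reads of controls 1, 2 and 3 and 2.73%, 1.299% and 2.58% of those of il7 mutants 1, 2 and 3. Control 1 was lowest, and each 95% Wilson interval (counting error only) was within 0.00544 percentage points. The members found took 0.431% ± 0.276 of reads in controls and 0.687% ± 0.262 in mutants (n = 3, SD), which a two-sided exact permutation test did not separate (p = 0.4). Over all 15 features the shares were 1.42% ± 0.903 and 2.20% ± 0.785 (n = 3, SD; exact permutation p = 0.3).

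No globin gene passed the test of il7 mutant against control. The level of hbaa1 was 135818 ± 80082 normalized counts in the control group and 204658 ± 88304 in the mutant group (n = 3 each, SD). On the log2(normalized count + 1) scale, the change of hbaa1 was 0.74 (SE 0.68, 95% interval −0.89 to 2.37, limma adjusted p = 1.00). The level of hbaa2 was 41775 ± 52708 against 64301 ± 33168 (n = 3 each, SD), and its log2 change was 1.64 (SE 1.19, 95% interval −1.22 to 4.50, limma adjusted p = 1.00). These intervals hold changes of either sign. The embryonic members were below the filter of a mean of 10 normalized counts, so none of the 3 was fitted.

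Among the other globin features, the log2 change was 1.06 (SE 0.71) for hbae4, 0.51 (SE 0.68) for hbae5, 0.60 (SE 0.68) for HBE1 ENSDARG00000089087, 2.38 (SE 1.31) for ENSDARG00000069734, 0.68 (SE 0.71) for ENSDARG00000097238 and 1.199 (SE 0.87) for ENSDARG00000045143, each with a limma adjusted p of 1.00. Of the 15 globin features, 8 were fitted. All 8 had a positive log2 change, beside 45.9% of all fitted genes, and 0 had groups that did not overlap, beside 7.94% of all fitted genes (3.51% with the mutants higher). These 8 features vary together and are not independent. Control 1 and il7 mutant 2 were the lowest pair for hbaa1 but not for hbaa2, beside 19.4% of all fitted genes. In 7 of the 8 the lowest library was control 1, which was so for 26.6% of all fitted genes, and without control 1 the change was positive in 6 of 8. Without control 1, hbaa1 had a log2 change of 0.05, hbaa2 of 0.38, ENSDARG00000089087 of −0.13 and ENSDARG00000097238 of −0.08. With both oocyte-rich libraries left out, the log2 change was 0.49 for hbaa1 and 0.71 for hbaa2.

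In the authors' deposited table, hbaa1 had an unshrunken log2 fold change of 0.59 and hbaa2 of 0.62, both with an adjusted p of 1.00, and hbae3 had −0.88 with an adjusted p of 1.00. At an adjusted p under 0.05 it lists 112 genes, 0.521% of those with a value, and no globin feature is among them. Over all 20782 fitted genes, limma called 0 (0%), against 723 (3.48%) at an unadjusted p under 0.05. It therefore did not call the targeted gene il7 either. In the authors' DESeq2 table il7 had an unshrunken log2 fold change of −2.45 with an adjusted p of 0.040. The lack of limma calls thus does not show that globin levels are unchanged.

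**Figure D4:**
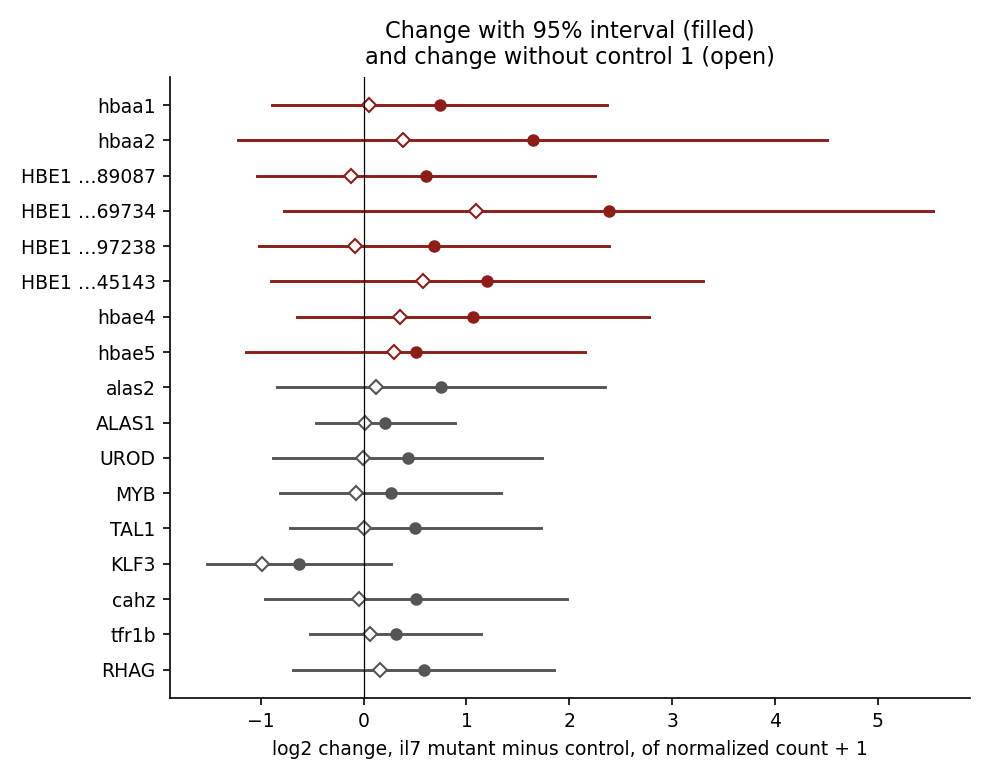
Log2 change of il7 mutant minus control with its 95% limma interval (filled points) and the change without control 1 (open diamonds), for the 8 fitted globin features (red) and 9 other red cell genes (grey). Each interval crosses 0, and the change of hbaa1 goes from 0.74 to 0.05 without control 1.

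The other genes of the red cell programme were taken as lists. Of the heme synthesis and supply list, 11 of 15 symbols were found, each above the filter. None passed, and 7 had a positive log2 change, beside 45.9% of all fitted genes. The median was 0.18, beside −0.04 over all fitted genes. The log2 change was 0.75 (SE 0.66) for alas2, 0.21 (SE 0.28) for ALAS1, which starts heme synthesis in most tissues, and 0.43 (SE 0.54) for UROD, a later enzyme of that pathway. Of the membrane, iron and enzyme list, 14 of 20 symbols were found and fitted. None passed, although all 14 had a positive change (median 0.42). In all 14 control 1 was the lowest library, beside 26.6% of all fitted genes. Here cahz, a red cell carbonic anhydrase, had a log2 change of 0.51 (SE 0.61), the transferrin receptor gene tfr1b 0.31 (SE 0.35), and RHAG, of the Rh membrane complex, 0.58 (SE 0.53). Without control 1 the median of this list was 0.02, and that of the heme list −0.01. Thrombocyte and muscle markers had changes of the same sign. Most fitted lymphocyte, oocyte, neutrophil and kidney tubule markers had negative changes, as had most of all fitted genes (45.9% positive, median −0.04). Positive and negative changes numbered 1 and 7 for lymphocyte markers (median −0.11) and 2 and 7 for oocyte markers (−0.43). They numbered 2 and 3 for neutrophil markers (−0.06) and 1 and 3 for kidney tubule markers (−0.03). Without control 1 these medians were −0.30, 2.38, −0.05 and −0.45 in that order. The 3 thrombocyte markers found of 5 were all positive (median 0.36) and all lowest in control 1, and their summed level was 1935 to 5751 normalized counts in control libraries and 3724 to 4419 in mutant libraries. The 7 muscle markers found of 12 were all positive too (median 1.398), with 1 of 7 lowest in control 1, and their sums were 4815 to 83909 in the control group and 18497 to 162522 in the mutant group. No marker of either list was at 0 in any library or passed the limma test, and without control 1 the medians were −0.04 and 0.97. The part of these cell types in the red cell and globin values was not tested.

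The list of erythroid and globin regulators matched 18 features, of which 16 were fitted. None passed, 9 were positive and 7 negative, with a median log2 change of 0.12, beside 45.9% positive among all fitted genes. MYB, a transcription factor of blood progenitors, had a log2 change of 0.26 (SE 0.45), and TAL1, a factor needed for blood formation, 0.50 (SE 0.51). KLF3, a repressor that binds CACCC motifs, had −0.63 (SE 0.37). The feature named klf1, after the mammalian activator of the adult beta globin gene, was listed at 0 in all 6 libraries, while klf17 had between 976 and 3983 normalized counts. As medians per list, hbaa1 and hbaa2 spread further over the libraries than the membrane, iron and enzyme list. The median centred log2 level was −2.55 in control 1 and 1.23 in il7 mutant 1 for hbaa1 and hbaa2, against −1.15 and 0.68 for the membrane, iron and enzyme list. Control 2 was the highest library for the regulators (0.64) and for the heme list (0.58), while hbaa1 and hbaa2 together stood at −0.23 there. These 2 genes differed in control 2. There hbaa1 had 176307 normalized counts, beside a mean of 170238 over the libraries, and hbaa2 had 20203, beside a mean of 53038. The kidney tubule markers also had their lowest values in control 1 and il7 mutant 2, at −0.68 and −0.66. The part of other tissues in these levels was not tested.

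**Figure D5:**
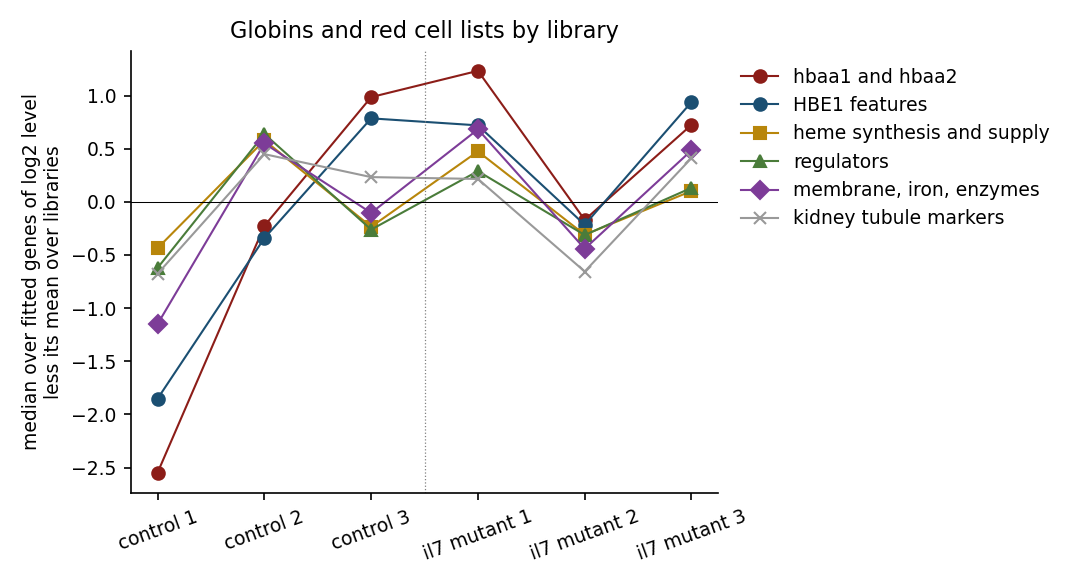
Median over the fitted genes of a list of the log2 level less its mean over the 6 libraries, with lines to guide the eye. Control 1 is lowest for every list shown: hbaa1 and hbaa2 (−2.55), the HBE1 features (−1.85) and the membrane, iron and enzyme list (−1.15). The same holds for the kidney tubule markers (−0.68), the regulators (−0.62) and the heme list (−0.44). In control 2 the median of hbaa1 and hbaa2 (−0.23) lies below the heme list (0.58) and the regulators (0.64). Relative to its mean over libraries, hbaa2 is low there and hbaa1 is not.

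Globins outside hemoglobin were described beside these genes. Myoglobin (mb), the oxygen-binding protein of muscle, had 18749, 61023 and 49526 normalized counts in control libraries and 55229, 34611 and 81591 in mutants. It was highest in il7 mutant 3, where the muscle actin actc1b stood at 7109 normalized counts. In il7 mutant 1, where actc1b stood at 68335, mb had 55229. The part of muscle or other tissues in the mb counts was not tested. The globin gene xgb had 138 and 75.4 normalized counts in control 1 and il7 mutant 2 and between 4.72 and 27.7 elsewhere. In this pair hbae3 was highest too, and the pair was the highest for 23.9% of all fitted genes. Neuroglobin (NGB), a globin of nerve cells, had 13.4, 2.02 and 4.44 normalized counts in control libraries and 38.9, 21.8 and 28.0 in mutants. Its groups did not overlap (beside 3.51% of all fitted genes with the mutants higher), with a log2 change of 2.27 (SE 0.74) and a limma adjusted p of 1.00. Cytoglobin 2 (cygb2) had between 7.09 and 17.98 normalized counts with overlapping groups. A feature named CYGB had 691, 811 and 767 in controls and 455, 328 and 701 in mutants, which also overlapped.

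The genes most like the adult alpha globins over the 6 libraries were sought among 12883 features with a symbol and a mean of at least 100 normalized counts. The measure was Pearson's r with the mean centred log2 level of hbaa1 and hbaa2. The first 6 were IRF2BP1, RAB3C, NMNAT2, SLC44A2, RASL12 and STARD4, with r between 0.995 and 0.998. Their levels varied far less than those of hbaa2, from 1.29-fold for IRF2BP1 to 3.61-fold for NMNAT2. As 681 of the 12883 features had r over 0.9 in these 6 libraries, and all points share the same libraries and size factors, the ranking is a description. For comparison r with this mean level was 0.986 for hbaa2 and 0.948 for hbaa1. Both genes make up this mean, so a high r is built into these values. The 6 genes were picked from 12883 for the highest r with this same mean. That their r is above that of either globin therefore says nothing about the globins. Among the other globin genes r was 0.975 for HBE1 ENSDARG00000069734, 0.960 for ENSDARG00000089087, 0.940 for hbae4, 0.680 for hbae5 and −0.797 for xgb. Set against alas2, r was 0.984 for hbaa1, 0.832 for hbaa2 and 0.991 for hbae4.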

How the data were processed

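Stranded libraries of ribosome-depleted total RNA were sequenced, as the labels' protocols state. Tools named in the submitters' processing notes, without roles, are STAR 2.5.3a, featureCounts 1.5.2, bcl2fastq 2.17.1.14 and, used by the authors, DESeq2 1.14.1, with the build GRCz10. Each deposited signal value is the authors' normalized count of a gene. Every value was a whole multiple of its column's smallest positive value within 1e-06, from which reads were inferred. In 3 columns this smallest value is close to 1, where a check of such steps did not accept the reads as recovered, so no count model was run, and read numbers and their intervals rest on the inference. The authors' deposited table gives a log2 fold change, a p-value with its adjusted value, a standard error and a Wald score, the last 2 not used. Symbols were matched without case to a table of gene names (26433 of 32267 features); RefSeq's table gave neighbours only, and no sequences were used.

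Titles gave the groups. Features averaging 10 or more normalized counts entered a comparison by limma 3.58.1 (R 4.3.3) of log2(normalized count + 1), using a variance trend and Benjamini-Hochberg adjustment at 0.05. This scale understates changes of low genes. The code was first run on simulated data in which all genes had the same spread. That run does not show which changes can be found in the real libraries. Members, lists and tests were chosen with earlier results of these data known. Genes named by rule were the members, up to 3 of the most abundant fitted genes of each red cell list and of the other hemoglobin genes (hbae4, hbae5), any called gene, the 6 genes with the most similar pattern and il7; globins outside hemoglobin, klf17, klf1, the HBE1 features, the globin features at 0 (hbae1.2, hbae1.3, si:ch211-5k11.8) and the markers zp3b, GDF9, zp2.1 and actc1b were added after their values were seen. The planned ratio of adult alpha to adult beta globin used the HBE1 features, since no adult beta gene was found by symbol. Every pair of libraries differed by more than sampling noise (smallest chi-square per degree of freedom 97.7).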

Additional observations from a re-analysis of the deposited data

How the results depend on the processing

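Alternatives covered pseudocounts of 0.5 and 10, no filter and a filter at 50, 4 scalings (one, without any globin feature, added after seeing the data), the variance model, array quality weights, each library left out, and both oocyte-rich libraries left out. Limma called 0 genes under each of the 18 alternatives, and so not il7 either. No globin feature or red cell list member passed in any of them. The change of hbaa1 was between 0.49 and 0.80, and that of hbaa2 between 0.71 and 1.75, under the other alternatives, against 0.05 to 1.18 and 0.38 to 2.86 with 1 library left out. Leaving out 1 library gave −0.13 to 1.03 for HBE1 ENSDARG00000089087, −0.084 to 1.11 for ENSDARG00000097238 and −0.030 to 0.82 for mb, each lowest, and of opposite sign, without control 1. Leaving out 1 library gave −0.022 to 2.20 for the adult to embryonic log2 ratio, with −0.022 without control 1, and −0.016 to 0.10 for the alpha to HBE1 log2 ratio, with −0.016 without il7 mutant 1. With hbae4 and hbae5 in the embryonic sum, added after seeing the data, the adult to embryonic difference was −0.12, and −0.27 when control 1 was left out as well. The difference in the share of reads held by the members was 0.105 to 0.402 percentage points with 1 library left out. The cause was not tested. With the replicate number as a block, limma again called 0 genes. Two-sided exact permutation tests within the pairs gave p = 0.75 for the adult to embryonic ratio, the alpha to HBE1 ratio and the share of reads. With so few pairs these permutation tests cannot reach 0.05 whatever the values, so they decide nothing. Same-numbered libraries correlated at −0.51, −0.40 and 0.51 in their deviations from the group means. The highest value, 0.73, joined control 1 and il7 mutant 2, the oocyte-rich libraries. With so few libraries, these values cannot show whether the numbers pair them. The planned count tests depended on recovered reads, which a check did not accept for 3 columns, and were not run. With 1 to 18 reads in a library, hbae3 gives no usable change at this depth.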
